A study of Mus musculus with 7 samples.

Results

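The genes of the T cell receptor complex, of its nearest signalling proteins and of T cell lineage control were examined in lesional skin of bleomycin-treated mice that carried or lacked OX40L. The list holds 30 genes, named by symbol and chosen with earlier results of these data known. Of these, 28 had a named probe set among the 23185 genes with a symbol in the platform annotation. Lck and Tcf7 had no row under those symbols and were not analysed here. There were 4 arrays of ox40l-/- mice, called knockout below, and 3 arrays of ox40l+/+ mice, called wild type. All mice were C57BL/6 males aged 9 weeks, and both genotypes had received bleomycin for 3 weeks, so no array shows skin without bleomycin. The labels do not state how the gene was inactivated or whether each array stands for a separate animal. The sample codes share numbers, namely 16 for knockout replicates 1 and 2, 17 for wild type replicates 1 and 2 and 18 for replicate 3 of both genotypes, whereas knockout replicate 4 alone has 19. What these numbers mean is not stated, so whether arrays that share one are independent samples is unknown.

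OX40L, the product of Tnfsf4, is a ligand of the TNF family displayed by activated antigen-presenting cells, and its receptor OX40 appears on T cells after they have met antigen. A T cell recognises antigen through the alpha and beta or the gamma and delta chains, which have no signalling tail of their own and depend on the CD3 chains and the zeta chain. When the receptor is engaged, a Src-family kinase phosphorylates those tails, ZAP-70 binds them, and the adaptors LAT and SLP-76 carry the signal on to calcium, Ras and NF-kB pathways. Mouse skin normally holds gamma-delta T cells in the epidermis and alpha-beta T cells, many of them regulatory, in the dermis around hair follicles.

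In 3 of the 28 genes the 2 genotypes did not overlap on the arrays, beside 1.91% of all genes. These were Cd3d and Cd3g, both higher in knockout, and Trat1, lower in knockout, none of them past the adjusted threshold given below. Cd3d, Cd3g and Cd3e encode CD3 chains and lie together on chromosome 9, whereas Trat1 lies on chromosome 16. In RefSeq (GRCm38.p6) the start sites of Cd3g and Cd3d point away from each other and are 1355 bases apart, and that of Cd3e lies 27825 bases from that of Cd3d. A promoter window from 250 bases before to 50 bases after the start site was found for 23 of the 30 genes. The windows of the 3 CD3 genes and of Trat1 are shown because the receptor results below turn on these genes. Capitals mark 6-letter motifs searched on both strands, namely the E-box forms CACCTG and CAGCTG, the ETS forms GGAAGT and GGAAAT, the GATA form AGATAA, the TCF/LEF form CTTTGA and the TATA box TATAAA. No match overlapped another in these windows.
Cd3g (GRCm38.p6, chr9:44980382-44980681, minus strand): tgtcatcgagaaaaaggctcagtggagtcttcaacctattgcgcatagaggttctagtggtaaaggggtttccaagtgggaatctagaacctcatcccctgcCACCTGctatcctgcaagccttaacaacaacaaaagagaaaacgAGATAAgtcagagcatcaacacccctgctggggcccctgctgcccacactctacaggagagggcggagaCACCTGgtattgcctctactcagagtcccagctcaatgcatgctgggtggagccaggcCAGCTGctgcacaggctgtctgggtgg
Cd3d (GRCm38.p6, chr9:44981536-44981835, plus strand): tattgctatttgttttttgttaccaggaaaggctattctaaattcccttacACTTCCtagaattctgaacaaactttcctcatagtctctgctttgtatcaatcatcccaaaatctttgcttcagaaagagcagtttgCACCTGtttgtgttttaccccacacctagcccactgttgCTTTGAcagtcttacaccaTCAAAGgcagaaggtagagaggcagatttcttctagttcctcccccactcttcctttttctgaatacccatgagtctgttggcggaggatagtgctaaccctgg
Cd3e (GRCm38.p6, chr9:45009562-45009861, minus strand): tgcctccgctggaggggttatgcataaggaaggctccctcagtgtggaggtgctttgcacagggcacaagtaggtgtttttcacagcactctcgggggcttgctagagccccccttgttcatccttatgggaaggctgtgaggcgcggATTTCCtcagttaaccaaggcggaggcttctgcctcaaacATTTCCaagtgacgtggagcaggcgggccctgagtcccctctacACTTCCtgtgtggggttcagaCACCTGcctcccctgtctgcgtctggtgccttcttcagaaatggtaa
Trat1 (GRCm38.p6, chr16:48772013-48772312, minus strand): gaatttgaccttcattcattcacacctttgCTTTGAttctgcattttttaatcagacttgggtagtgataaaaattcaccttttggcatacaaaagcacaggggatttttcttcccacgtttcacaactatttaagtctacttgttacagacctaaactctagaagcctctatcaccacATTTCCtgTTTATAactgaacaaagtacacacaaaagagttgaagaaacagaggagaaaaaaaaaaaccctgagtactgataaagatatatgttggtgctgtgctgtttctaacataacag
CACCTG occurred in all 3 CD3 windows shown and not in that of Trat1, and it occurred in 20.2% of the 32851 promoter windows of the table. CTTTGA was found at 2 places in the Cd3d window and at 1 place in the Trat1 window, against 16% of all windows with at least 1 match. GGAAGT, in 23.8% of all windows, occurred in those of Cd3d and Cd3e, and GGAAAT, in 17.7%, in those of Cd3e and Trat1. AGATAA and CAGCTG occurred in the Cd3g window alone of the 4, against 11.2% and 16.3% of all windows, and TATAAA in the Trat1 window alone, against 13.6%. The TATAAA match was on the strand opposite to the gene's, at -63 to -58 from the start site. These are matches of letters and no measure of binding.

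The values are log2 levels after robust multi-array averaging (RMA), and a difference of 1 on this scale is 2-fold. Wild type replicates 1 and 3 stood apart from the other 5, with a correlation over probe sets of 0.761 to 0.914 in pairs that held either of them and of 0.956 to 0.968 among the rest. Values also spread unequally over probe sets, with an SD of 1.72 for wild type replicate 1, 1.22 for replicate 3 and 1.38 to 1.48 for the remaining arrays. Many of the differences below rest on these arrays, and values without them are given for the genes described in most detail. Tnfsf4, the targeted gene, lay between 2.81 and 3.35 in knockout and between 2.53 and 3.65 in wild type, but where its probes lie relative to the deleted part was not known here, so this checks nothing. Krt14, the basal keratin of epidermis, was at 9.54 to 10.94 on the 7 arrays. The data are from whole tissue, in which fewer T cells and less RNA per T cell cannot be told apart.

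No member passed the test of genotype over all genes. In limma with Benjamini-Hochberg adjustment, 0 of the 28 had an adjusted p under 0.05, where 1 of the 23185 genes, 0.00431%, passed, namely the haemoglobin gene Hbb-b1, higher in knockout. At an unadjusted p under 0.05 there were 2 members, Cd3d above and Trat1 below wild type, beside 1.88% of all genes (1.03% above and 0.854% below). The share of all genes rose to 12.0% without wild type replicate 3, where 2 members had such a p, and to 8.73% without wild type replicates 1 and 3, where 1 had, so that the members' share was then below that of all genes. The 3 members without overlap stood beside 1.91% of all genes (1.1% above and 0.815% below). Of the 28, 18 had a higher mean in knockout and 10 a lower one, and 51.7% of all genes had a higher mean. After a further quantile normalization the split of the members was 15 to 13, and with the code number of the samples as a random block it turned to 13 higher and 15 lower. The median difference was 0.04 over the members and 0.01 over all genes. It was 0.14 and 0.08 without wild type replicate 3, and -0.01 and -0.02 without wild type replicate 1. With all arrays, the median size of a difference, sign aside, was 0.12 and 0.16. The 95% confidence interval lay within 2-fold in both directions for 23 of the 28 members, beside 73.7% of all genes, and within 1.5-fold for 14 of them, beside 33% of all genes. The half-width of that interval had a median of 0.47 over the members, from 0.29 for Ikzf3 to 1.27 for Gata3. It depends on the spread of each gene's values as well as on the number of arrays.

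**Figure D1:**
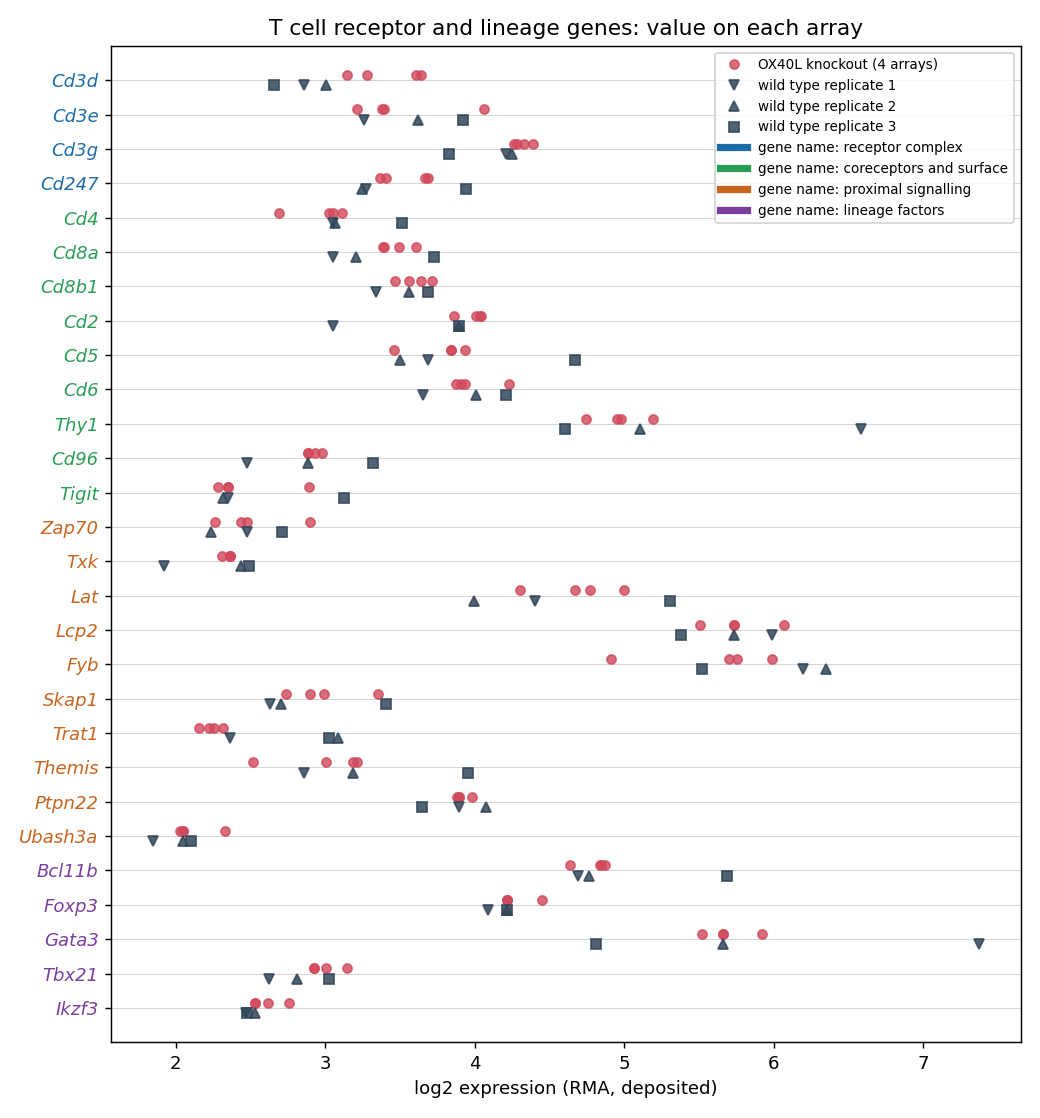
Log2 level (horizontal axis) of each of the 28 genes on each array, with knockout arrays as red circles, wild type replicates as separate dark symbols and gene names coloured by role. The genotypes are apart for Cd3d, Cd3g and Trat1, and wild type replicate 1 lies far to the right for Gata3 (7.37) and Thy1 (6.58).

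Of the receptor's invariant chains, Cd3d and Cd3g were higher on each knockout array than on each wild type array, and Cd3e and Cd247 overlapped. Cd3d, which encodes CD3 delta, was at 3.61, 3.28, 3.15 and 3.64 on knockout replicates 1 to 4 and at 2.86, 3.01 and 2.66 on wild type replicates 1 to 3. Every knockout array was above every wild type array. The means were 3.42 ± 0.24 (SD, n = 4) and 2.84 ± 0.17 (SD, n = 3), and the difference of 0.58 (SE 0.18), or 1.49-fold with a 95% confidence interval of 1.12 to 2.0, had an unadjusted p of 0.0134 and an adjusted p of 0.9995 in limma. The exact permutation test of the means, two-sided over 35 splits, gave p = 0.0571 before any adjustment. Cd3d kept its sign in all alternatives that held it (it is left out with the dimmest 50% of genes), from 0.49 to 0.67 with single arrays left out and at 0.41 without wild type replicates 1 and 3, where its unadjusted p was no longer under 0.05. The sample codes in the labels carry a letter suffix on some arrays, with no stated meaning. Arrays lacking the suffix had Cd3d at 3.61 and 3.64 (knockout) against 2.86 and 2.66 (wild type), and arrays bearing it had 3.28 and 3.15 against 3.01.

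Cd3g, for CD3 gamma, was at 4.33, 4.28, 4.39 and 4.26 in knockout and at 4.21, 4.25 and 3.83 in wild type. The knockout values were close to each other and all above wild type, though the lowest knockout and the highest wild type value were almost equal and wild type replicate 3 made most of the distance. The difference was 0.22 (SE 0.15, adjusted p = 0.9995 in limma), and it fell to 0.09 without wild type replicate 3 and to 0.07 without wild type replicates 1 and 3. The exact permutation test gave p = 0.0286, the smallest that 35 splits allow, before any adjustment.

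Cd3e, for CD3 epsilon, was at 3.38, 4.06, 3.40 and 3.21 in knockout and at 3.26, 3.62 and 3.92 in wild type. The genotypes overlapped fully, with the highest value on knockout replicate 2, and the difference was -0.09 (SE 0.25, adjusted p = 0.9995 in limma). Cd247, which encodes the zeta chain with its repeated activation motifs, was at 3.69, 3.67, 3.37 and 3.41 in knockout and at 3.27, 3.25 and 3.94 in wild type. Wild type replicate 3 was the highest of the 7 arrays and the other wild type arrays were the lowest, so that the difference of 0.04 (SE 0.21, adjusted p = 0.9995 in limma) became 0.27 without that array. Since CD3 delta and gamma each pair with epsilon in the assembled receptor, the 3 CD3 genes are given side by side: the differences were 0.58 for Cd3d, 0.22 for Cd3g and -0.09 for Cd3e, and the confidence intervals of all 3 overlapped (0.16 to 1.0, -0.13 to 0.57 and -0.68 to 0.51).

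**Figure D2:**
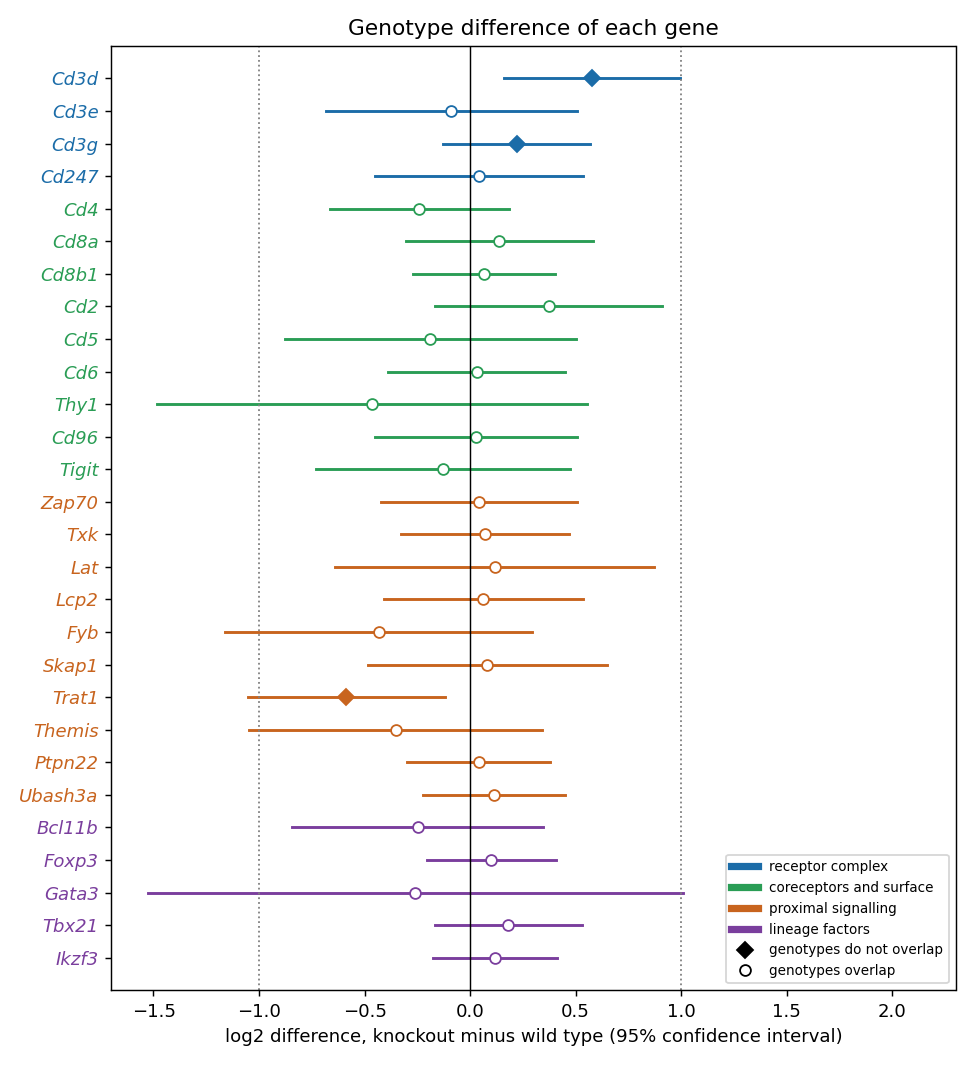
Log2 difference, knockout minus wild type, of each gene with limma's 95% confidence interval as a line; filled diamonds mark genes whose genotypes do not overlap, and dotted lines mark a 2-fold difference. The intervals of Cd3d (0.16 to 1.0) and Trat1 (-1.05 to -0.12) leave out 0 before adjustment, and those of the other 26 genes hold it.

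The coreceptors overlapped between the genotypes. Cd4, the coreceptor for MHC class II, which mouse macrophages and dendritic cells can also carry, was at 2.69, 3.03, 3.12 and 3.05 in knockout and at 3.05, 3.07 and 3.52 in wild type. Apart from the low knockout replicate 1 and the high wild type replicate 3, the arrays lay close together, and the difference was -0.24 (SE 0.18, adjusted p = 0.9995 in limma). It was -0.09 without that wild type array and -0.15 without that knockout array. Cd8a, the alpha chain of the class I coreceptor, was at 3.39, 3.49, 3.61 and 3.38 in knockout and at 3.05, 3.20 and 3.73 in wild type. The wild type arrays lay on both sides of the knockout range, and the difference was 0.14 (SE 0.19, adjusted p = 0.9995 in limma), rising to 0.34 without wild type replicate 3 and falling to 0.001 without wild type replicate 1. Cd8b1, the beta chain that conventional cytotoxic T cells add to it, differed by 0.07 (SE 0.14), with knockout between 3.47 and 3.71 and wild type between 3.34 and 3.69.

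Of the other surface proteins, Cd2, an adhesion receptor of T and NK cells, had the second largest positive difference among the members. It was at 4.01, 3.86, 4.04 and 4.04 in knockout and at 3.05, 3.90 and 3.90 in wild type, so that 1 low array, wild type replicate 1, set the wild type mean. The difference was 0.37 (SE 0.23, adjusted p = 0.9995 in limma) with that array and 0.09 without it. Cd5 and Cd6, related scavenger-receptor proteins that dampen receptor signals, differed by -0.19 (SE 0.29) and 0.03 (SE 0.18). Cd5 was at 4.67 on wild type replicate 3 and between 3.46 and 3.94 on the other 6 arrays, and its difference turned to 0.17 without that array. Cd96 and Tigit, receptors for nectin-family ligands on T and NK cells, differed by 0.03 (SE 0.20) and -0.13 (SE 0.26), and both were highest on wild type replicate 3, at 3.32 and 3.13.

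Thy1, a T cell antigen in mice that fibroblasts and other skin cells also bear, was at 4.74, 4.98, 4.96 and 5.19 in knockout and at 6.58, 5.11 and 4.61 in wild type. The highest and the lowest array were both wild type, and the other 5 lay between them. The difference of -0.47 (SE 0.44, adjusted p = 0.9995 in limma) turned to 0.11 without wild type replicate 1 and grew to -0.88 without wild type replicate 3. Of 10 dermal fibroblast genes, 6 were highest on wild type replicate 1 and 5 lowest on wild type replicate 3, beside 25.3% and 19.2% of all genes. The mean deviation of these 10 from their averages was 0.49 on the former, -0.84 on the latter and -0.21 to 0.35 in knockout. The pattern was not particular to fibroblast genes. Of 8 basal keratinocyte genes, 7 were highest on wild type replicate 1 and 7 lowest on wild type replicate 3. The same held for 7 and 7 of 10 genes of all leukocytes. Each of these lists had a higher median level than all genes. Over probe sets, values spread most widely on wild type replicate 1 and least on wild type replicate 3. All genes are therefore not a baseline matched for level, and other genes of like level were not tested. The part of these lists in the Thy1 values was not tested.

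Among the proximal signalling genes, Trat1 had the largest negative difference of all members. It encodes TRIM, a transmembrane adaptor that associates with the receptor complex. Its values were 2.16, 2.32, 2.26 and 2.22 in knockout and 2.37, 3.09 and 3.03 in wild type. All knockout arrays were below all wild type arrays, narrowly so for wild type replicate 1 and by a wider gap for the other wild type arrays. The means were 2.24 ± 0.07 (SD, n = 4) and 2.83 ± 0.40 (SD, n = 3). The difference of -0.59 (SE 0.20), a ratio of 0.666 with a 95% confidence interval of 0.482 to 0.920, had an unadjusted p of 0.0204 and an adjusted p of 0.9995 in limma. It kept its sign in all alternatives that held it, which excludes both filters on dim genes, between -0.82 and -0.46 with single arrays left out and at -0.85 without wild type replicates 1 and 3. Its unadjusted p was no longer under 0.05 without wild type replicate 2 (-0.46) or without wild type replicate 3 (-0.49). The exact permutation test gave p = 0.0286, again the smallest possible and unadjusted. Trat1 was among the dim genes, with a mean at percentile 15.5 of all genes.

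The kinases and core adaptors that were measured showed no separation. Zap70, the kinase that docks on phosphorylated CD3 and zeta tails, was at 2.90, 2.48, 2.43 and 2.26 in knockout and at 2.48, 2.24 and 2.71 in wild type. The genotypes overlapped across nearly the whole range, and the difference was 0.04 (SE 0.20, adjusted p = 0.9995 in limma). Lat, the membrane scaffold that ZAP-70 phosphorylates and that mast cells and platelets also use, was at 5.0, 4.67, 4.77 and 4.30 in knockout and at 4.41, 4.00 and 5.30 in wild type. Its highest and its lowest value were both wild type, and the difference of 0.12 (SE 0.32, adjusted p = 0.9995 in limma) was -0.17 when wild type replicate 2 was left out and 0.48 when replicate 3 was. Lcp2, which encodes SLP-76, differed by 0.06 (SE 0.20), and Txk, a Tec-family kinase, by 0.07 (SE 0.17). Zap70 and Txk were among the dim genes, with means at percentiles 15.8 and 11.3 of all genes, and Lck was not analysed.

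Fyb, an adaptor that links SLP-76 to integrin activation in T cells and myeloid cells, had a mean difference of -0.43 (SE 0.31, adjusted p = 0.9995 in limma). It was at 5.76, 5.70, 4.91 and 5.99 in knockout and at 6.20, 6.35 and 5.52 in wild type, so that wild type replicate 3 fell inside the knockout range and knockout replicate 3 lay below all other arrays. Without wild type replicates 1 and 3 the difference was -0.76, and without knockout replicate 3 it was -0.21. Skap1, a partner of Fyb, differed by 0.08 (SE 0.24). Themis, a T cell protein needed in thymic selection, differed by -0.35 (SE 0.30), of which most came from wild type replicate 3 at 3.96, since without it the difference was -0.04. The signalling inhibitors Ptpn22 and Ubash3a differed by 0.04 (SE 0.14) and 0.11 (SE 0.14), the latter by 0.04 without wild type replicate 1.

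The genotypes overlapped for all 5 lineage factors measured. Foxp3, the factor that defines regulatory T cells, was at 4.22, 4.22, 4.45 and 4.22 in knockout and at 4.09, 4.22 and 4.22 in wild type. The same value was returned on 5 of the 7 arrays, so that the difference of 0.10 (SE 0.13, 95% confidence interval -0.20 to 0.41; adjusted p = 0.9995 in limma) rests on 2 arrays, being 0.04 without knockout replicate 3 and 0.06 without wild type replicate 1. Equal values on at least 2 arrays occurred in 16 of the 28 members, beside 54.3% of all genes. Tbx21, which encodes T-bet of type 1 T cells and NK cells, was at 3.01, 3.15, 2.92 and 2.92 in knockout and at 2.62, 2.81 and 3.03 in wild type. Most knockout arrays were above most wild type arrays, with overlap at wild type replicate 3, and the difference was 0.18 (SE 0.15, adjusted p = 0.9995 in limma), or 0.08 without wild type replicate 1 and 0.28 without wild type replicate 3. Ikzf3, or Aiolos, a factor of lymphocytes, differed by 0.12 (SE 0.13).

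Gata3, the factor of type 2 T cells, which is also expressed in the inner root sheath of hair follicles and in epidermis, was at 5.66, 5.92, 5.66 and 5.52 in knockout and at 7.37, 5.66 and 4.82 in wild type. As with Thy1, 1 wild type array was far above and 1 below all others. The difference of -0.26 (SE 0.54, 95% confidence interval -1.52 to 1.01; adjusted p = 0.9995 in limma) turned to 0.45 without wild type replicate 1, was -0.83 without wild type replicate 3 and was 0.03 without both. All 9 inner root sheath genes, among them Krt25, Krt71 and Tchh, were highest on wild type replicate 1, where their mean deviation was 3.84, against -1.51 to -0.01 in knockout and 0.44 and -1.18 on wild type replicates 2 and 3. Of these 9 genes, 6 were lowest on knockout replicate 4 and 2 on wild type replicate 3, the lowest array for Gata3. Of 8 basal keratinocyte genes, 7 were highest on wild type replicate 1 and 7 lowest on wild type replicate 3. Both lists had a higher median level than all genes, and other genes of like level were not tested. The part of either list in the Gata3 values was not tested. Bcl11b, a factor required for T cell commitment that keratinocytes also express, was at 4.85, 4.64, 4.87 and 4.84 in knockout and at 4.69, 4.77 and 5.69 in wild type. Without the single high array, wild type replicate 3, its difference of -0.25 (SE 0.25, adjusted p = 0.9995 in limma) became 0.07.

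**Figure D3:**
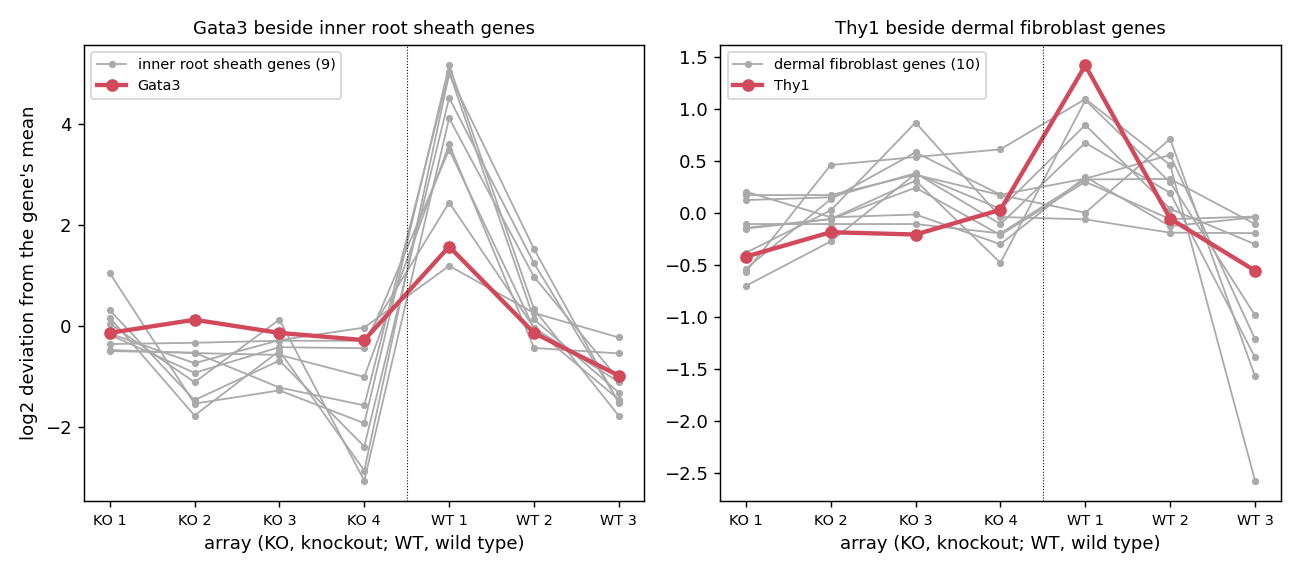
Log2 deviation from each gene's mean over the 7 arrays, for Gata3 with 9 inner root sheath genes (left) and for Thy1 with 10 dermal fibroblast genes (right); arrays are on the horizontal axis and the dotted line parts knockout from wild type. Gata3 and all 9 inner root sheath genes peak on wild type replicate 1. Gata3 is lowest on wild type replicate 3, as are 2 of the 9.

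On the 2 arrays that stood apart, the members can be set beside all genes. Wild type replicate 1 was the lowest array for 11 of the 28, or 39.3%, beside 39.1% of all genes, and wild type replicate 3 was the highest for 11 of them, beside 30.1% of all genes. Set against only the 5 arrays that were alike, wild type replicate 1 was below them all in 13 members, beside 41% of all genes, and wild type replicate 3 above them all in 11, beside 32.4%. Wild type replicate 1 was the highest array for 2 members, Gata3 and Thy1, that is 7.14%, beside 25.3% of all genes. Wild type values spread more than knockout values in 21 of the 28 members, or 75%, beside 76.9% of all genes, and the median SD of a member was 0.34 in wild type and 0.17 in knockout. Against the knockout arrays alone, wild type replicate 2 was below all 4 in 8 members, beside 20.3% of all genes, and above all 4 in 4 members, beside 17.1%.

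**Figure D4:**
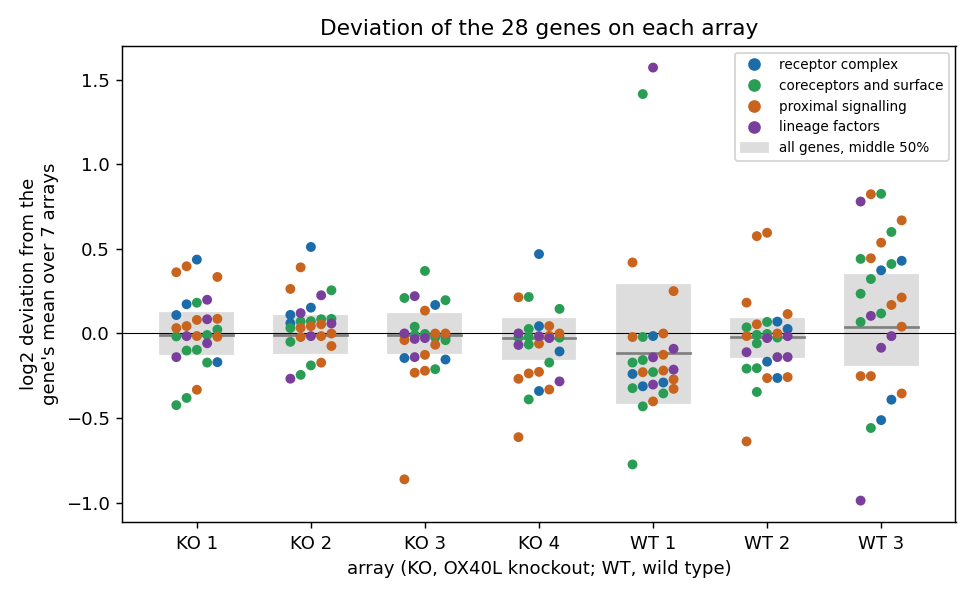
Log2 deviation of each of the 28 genes from its own mean, by array, with points coloured by role; grey boxes hold the middle 50% of all 23185 genes and the grey line their median. Points scatter most on wild type replicates 1 and 3, where the grey boxes are widest too, and the top points on wild type replicate 1 are Gata3 and Thy1.

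The direction of the difference depended in 16 of the 28 members on the processing or on which wild type arrays were kept. Of the 28 signs, 8 turned without wild type replicate 1, 4 without replicate 2, 6 without replicate 3 and 7 without replicates 1 and 3. In all, 12 members kept their sign in every run that held them, namely Cd3d, Cd3g, Cd4, Cd8a, Cd2, Fyb, Trat1, Themis, Ubash3a, Foxp3, Tbx21 and Ikzf3. The number of members with a higher mean in knockout was 14 without wild type replicate 1 or 2 and 20 without replicate 3.

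**Figure D5:**
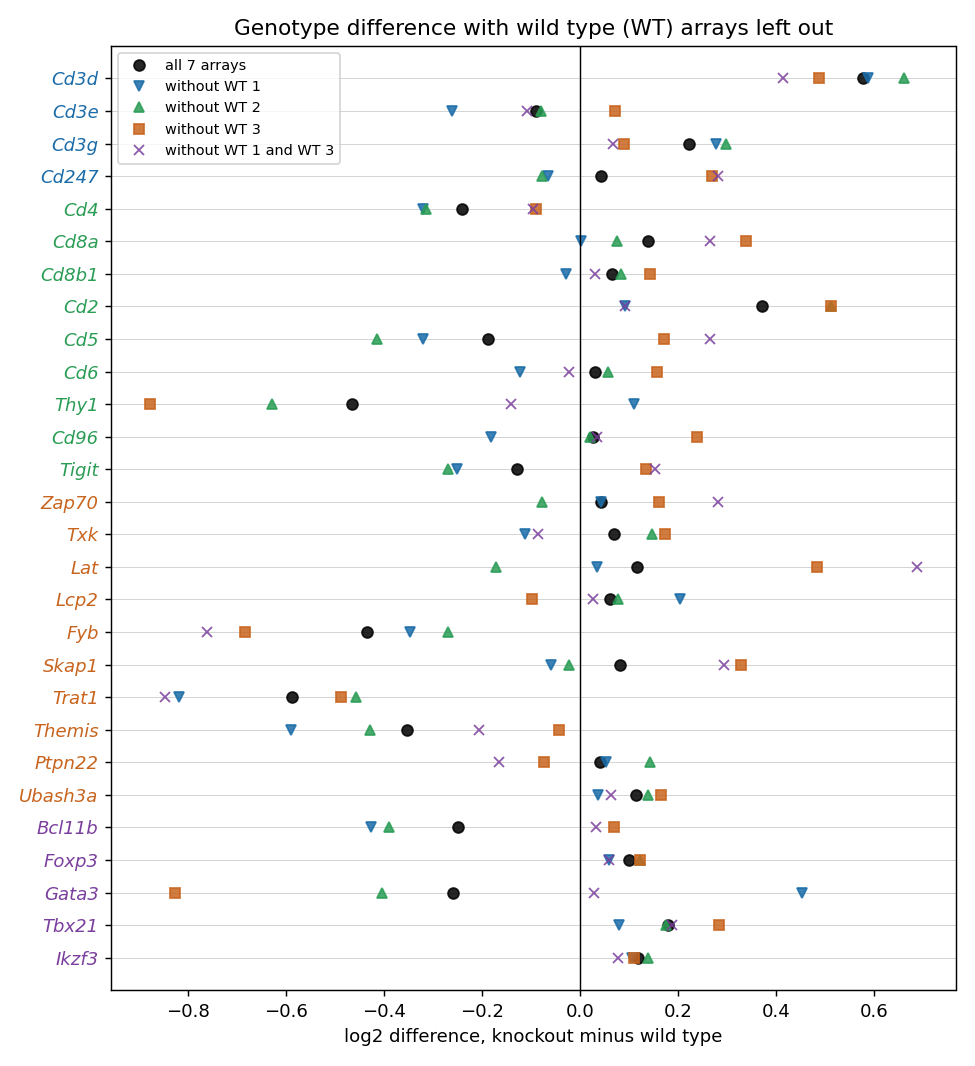
Log2 difference, knockout minus wild type, of each gene from all 7 arrays and with wild type arrays left out. Cd3d stays between 0.41 and 0.66 and Trat1 between -0.85 and -0.46 in these runs, whereas Gata3 moves from -0.83 to 0.45.

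Other genes of the receptor pathway gave no call. Of 35 genes listed, from the kinase Fyn and the phosphatase CD45 to calcium channels and ubiquitin ligases, 33 were measured. Their means were higher in knockout in 15 and lower in 18, with a median difference of -0.07. In limma, 0 passed the adjusted threshold. Beside 1.88% of all genes, 1 of the 33 had an unadjusted p under 0.05. That gene was Cbl, a ubiquitin ligase that removes engaged receptors, at 3.25, 3.32, 3.50 and 3.53 in knockout and at 4.72, 3.69 and 3.71 in wild type. Its genotypes did not overlap, as in 0.815% of all genes in that direction. The difference of -0.64 (SE 0.27, adjusted p = 0.9995 in limma) shrank to -0.30 without wild type replicate 1. Malt1, a protease of the NF-kB branch, differed by -0.28 (SE 0.14), Bcl10, its partner, by -0.33 (SE 0.19), and Sos1, a Ras activator, by -0.33 (SE 0.21). Without wild type replicate 1, Bcl10 was at -0.16 and Sos1 at -0.09.

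Of 13 genes that T cells switch on after receptor engagement, 5 had a higher and 8 a lower mean in knockout, and 0 passed either threshold. Il2, the growth factor of activated T cells, differed by 0.38 (SE 0.21), or 0.18 without wild type replicate 1, and Il2ra, a chain of its receptor, by -0.41 (SE 0.28), of which -0.04 was left without wild type replicate 3. The early response factors Egr3 and Nr4a1 differed by -0.56 (SE 0.32) and -0.29 (SE 0.19), and without wild type replicate 1 Egr3 was at -0.13 and Nr4a1 at -0.47. A further list of 22 T cell genes had 19 measured members, 11 with a higher and 8 with a lower mean. Among them the constant regions of the receptor's beta chain, Trbc1 and Trbc2, differed by 0.48 (SE 0.18, unadjusted p = 0.0350 and adjusted p = 0.9995 in limma) and 0.63 (SE 0.53), the latter -0.05 without wild type replicate 3, but these genes are near-identical and their probes can cross-hybridise. Trbc1 was at 7.72, 8.10, 7.72 and 7.94 in knockout and at 7.26, 7.72 and 7.20 in wild type, so that wild type replicate 2 equalled the lowest knockout arrays. Without wild type replicates 1 and 3 the difference was 0.15. Trac, the constant region of the alpha chain, differed by -0.18 (SE 0.25), and by 0.11 without wild type replicate 1. S1pr1, a receptor that lets T cells leave tissue, was above wild type on all knockout arrays, by 0.33 on average (SE 0.16, adjusted p = 0.9995 in limma) but by 0.18 without wild type replicate 3 and by 0.13 without wild type replicates 1 and 3. Lef1 had the lowest difference of this list, -0.77 (SE 0.52). It was -0.08 without wild type replicate 1 and 0.26 without wild type replicates 1 and 3.

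Other genes of regulatory T cells were divided, with a higher mean in knockout in 4 of 8, and the one with the smallest p was Ikzf2, or Helios, at 0.51 (SE 0.23). Of 7 measured genes of gamma-delta and innate-like T cells, 3 had a higher and 4 a lower mean, and Zbtb16, or PLZF, ranged from 4.11 to 4.64 in knockout and, without overlap, from 4.67 to 5.25 in wild type, with a difference of -0.39 (SE 0.21, adjusted p = 0.9995 in limma) that was -0.20 without wild type replicate 3. Il23r, the interleukin-23 receptor, differed by 0.52 (SE 0.28), or 0.35 without wild type replicate 1, and was dim, with a mean at percentile 16.0 of all genes. None of these 15 genes had an unadjusted p under 0.05.

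Several members are transcribed by other leukocytes as well, and the lists for those cells moved with single arrays. Genes of all leukocytes, such as Ptprc and Laptm5, deviated from their averages by a mean of 0.62, 0.37 and -0.97 on the 3 wild type arrays and by -0.24 to 0.25 in knockout. The genotype means were higher in knockout for 5 of the 10 genes. NK cell genes had a higher mean in knockout in 9 of 11, beside 51.7% of all genes. Their mean deviations were 0.05 to 0.23 in knockout and -0.57, 0.08 and 0.11 in wild type. Wild type replicate 1 was the lowest array for 9 of these 11, beside 39.1% of all genes. Without that array the signs were mixed, as with Klrb1c at -0.37 and Klrd1 at -0.15 but Eomes at 0.23. Ncr1, the NK receptor NKp46, was at 4.73 to 5.22 in knockout and at 3.93 to 4.69 in wild type (difference 0.55, SE 0.22, adjusted p = 0.9995 in limma), and differed by 0.35 without wild type replicate 1. Mast cells, which also use Lat and Lcp2, were followed by 10 genes of their own, of which 8 had a higher mean in knockout, with mean deviations of 0.03 to 0.15 in knockout and of -0.19, 0.07 and -0.32 in wild type. B cell genes had a higher mean in 6 of 9 and genes of macrophages and dendritic cells in 5 of 11. RMA values have no zero and no detection calls were used, so none of these markers can be called absent, and their part in the members' values was not tested.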

How the data were processed

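Skin RNA of 7 samples was hybridised to Affymetrix arrays, 1 per sample, and the titles gave each sample's genotype. The authors deposited log2 values after RMA, per the submitters' processing notes. Its version was not given in the sources used here, and the same holds for the genome build and the definition of the probe sets. Of 25206 probe sets, the 23185 with 1 gene symbol in the platform annotation were tested and 2021 were unnamed here.

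The genotypes were tested by limma 3.58.1 under R 4.3.3 (lmFit and eBayes, all 7 arrays, two-sided, Benjamini-Hochberg adjustment over all 23185 genes, threshold 0.05). Differences are knockout minus wild type. The fit takes the spread as equal in both genotypes, although it was larger in wild type. Exact permutation tests used the 35 splits of 7 arrays into 4 and 3. Whether samples are separate animals is not stated, so p-values measure the spread between samples, which may be technical. Precision is limited by how many arrays there are. The procedure was checked on simulated data in which each gene had the same spread in both genotypes, unlike these data. A simulation with unequal spread was run without such a check.

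The members and lists were chosen with earlier results of these data known. Named with all values were the CD3 and zeta chains, Cd4, Cd8a, Zap70, Lat, Foxp3, Gata3, Tbx21, Bcl11b, Thy1, members without overlap or with an unadjusted p under 0.05, and the 2 largest differences each way; the rule also held Lck, which had no named probe set. Up to 4 genes of each other list were named by their p, as were markers defining a cell type. Fyb, Trbc2, Trac and Hbb-b1 were named after their values were seen. The alternatives were other normalizations, filters on dim genes, array weights, blocks, covariates and arrays left out. Promoter windows are from RefSeq (GRCm38.p6). Figures were drawn with matplotlib 3.10.9 in Python 3.11.15.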

Additional observations from a re-analysis of the deposited data

Results flagged for a closer look

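In 7 of the 28 genes, or 25%, 1 of the 4 knockout arrays stood apart from the other 3 by Dixon's criterion at the 95% level, beside 20.3% of all genes. The criterion sets a gap against the range of the 4 values, so small gaps can meet it, as for Txk and Ptpn22 below. The criterion's rate of about 1 in 20 groups presumes values without ties. Equal values on at least 2 arrays occurred in 54.3% of all genes, so no excess among the members is read from that rate. On knockout replicate 2, Cd6 was at 4.23 with the others between 3.88 and 3.94, Ubash3a at 2.33 with the others between 2.03 and 2.05, and Bcl11b at 4.64 with the others between 4.84 and 4.87. On knockout replicate 3, Tigit was at 2.90 with the others between 2.28 and 2.35. Also on that array, Txk was at 2.31 and Foxp3 at 4.45, while the other 3 knockout arrays shared exactly the same value, 2.37 for Txk and 4.22 for Foxp3. On knockout replicate 1, Ptpn22 was at 3.98 with the others between 3.88 and 3.90.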

How the results depend on the processing

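Over all genes, 1 gene passed the adjusted threshold in limma, and 0 did with an intensity trend and robust moderation, quantile normalization again, arrays centred on their medians, the code suffix as a term, the array SD as a covariate, all probe sets, without wild type replicates 1 and 3, or with any single array left out (0 to 0); at an unadjusted p under 0.05 there were 436. Without wild type replicates 1 and 3, the lone wild type array was assumed to vary like the knockout arrays. Among the members 0 passed, against 2 at an unadjusted p under 0.05, and 0 of 33 other pathway genes passed, against 1. Estimated array weights gave 4032 genes, 5 members (Cd3d, Cd8a, Lat, Fyb and Trat1) and 3 other pathway genes, but that estimate stopped before it converged and gave wild type replicate 2 a weight of 75.4 and wild type replicates 1 and 3 weights of 0.106 and 0.109. Weights estimated gene by gene, added after seeing the data like the scaling to one SD, gave 1 gene and 0 members. The members with a higher mean numbered 18, 11 of the 19 left without the dimmest 30% of genes, 7 of the 12 left without the dimmest 50%, 13 of 28 with the code number as a random block, where the members' median was -0.0036, and 14 to 20 with single arrays left out.

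Deviations of same-numbered arrays correlated at -0.09, -0.15 and 0.03, and those of arrays with unlike numbers at -0.17 to 0.24. The wild type deviations are from a mean of 3 arrays, of which replicates 1 and 3 stood apart. These values therefore cannot decide whether the replicate numbers of the titles pair the samples. With the replicate block 0 genes passed, 251 had an unadjusted p under 0.05, and 1 member, Fyb, was among them; Cd3e turned to 0.011.

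Signs of small differences turned elsewhere too, and the cause was not tested. With array weights Cd6 was -0.011, Txk -0.086, Ptpn22 -0.17, Bcl11b 0.026, Gata3 0.043, Tigit 0.16 and Cd5 0.28, and gene by gene Cd6 was -0.0016, Txk -0.063, Ptpn22 -0.14, Gata3 0.0048, Tigit 0.12 and Cd5 0.22. Without wild type replicates 1 and 3, Cd6 was -0.023, Txk -0.085, Ptpn22 -0.16, Gata3 0.029, Bcl11b 0.033, Tigit 0.15 and Cd5 0.27. With the array SD as a covariate Cd6 was -0.028, Cd247 -0.030 and Cd96 -0.060. With the code number as a random block Zap70 was -0.0031, Skap1 -0.0041, Cd6 -0.0060, Cd96 -0.026 and Cd247 -0.030. After quantile normalization Cd247 was -0.0042, Zap70 -0.022 and Cd96 -0.044, and with arrays scaled Cd96 was -0.031. With single arrays left out the differences ran from -0.27 to 0.072 for Cd3e, -0.077 to 0.27 for Cd247, -0.029 to 0.14 for Cd8b1, -0.41 to 0.17 for Cd5, -0.12 to 0.16 for Cd6, -0.88 to 0.11 for Thy1, -0.18 to 0.24 for Cd96, -0.27 to 0.14 for Tigit, -0.084 to 0.16 for Zap70, -0.11 to 0.17 for Txk, -0.17 to 0.48 for Lat, -0.10 to 0.20 for Lcp2, -0.058 to 0.33 for Skap1, -0.073 to 0.14 for Ptpn22, -0.43 to 0.070 for Bcl11b and -0.83 to 0.45 for Gata3.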

Other observations

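In limma, 2 further genes of other cell types, Mrgprb1 and Itgam, had an unadjusted p under 0.05, and both had an adjusted p of 0.9995. Mrgprb1, a receptor of connective tissue mast cells, was at 4.45, 3.72, 3.85 and 4.05 in knockout and at 2.84, 3.12 and 3.79 in wild type, and differed by 0.77 (SE 0.28). Only wild type replicate 3 overlapped the knockout range. Itgam, the CD11b chain of myeloid integrins, differed by -0.55 (SE 0.22) and was at 4.37 to 4.93 in knockout, with the highest wild type value on replicate 2. Gzma, a granzyme of NK and cytotoxic T cells, had an unadjusted p of 0.0513 in limma and a difference of 0.75 (SE 0.32), which was 0.34 without wild type replicate 1 and 0.24 without wild type replicates 1 and 3.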
